A study of Mus musculus with 12 samples.

Results

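Ddah1 and 9 other genes of nitric oxide and arginine metabolism (Ddah2, Prmt1, Nos1, Nos2, Nos3, Ass1, Asl, Arg2 and Slc7a9) were followed across 4 groups of mouse jejunum. The list was drawn up around Ddah1. That gene was selected on its differences between ligated and sham mice in these same arrays and on how they compared between strains. Its ligation values are therefore a description, with no test. Of the 10 listed genes, 9 had a probe set that the platform table assigns to a single gene symbol, among 19938 genes with such a probe set and 35556 probe sets in all. Each of the 9 had exactly 1 such probe set, so no choice between probe sets was needed. Ass1 had none, because its 2 probe sets also carry the symbol of a pseudogene, Gm5424.

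The groups were A/J CBDL, A/J sham, B6 CBDL and B6 sham, where CBDL is common bile duct ligation, which stops bile from reaching the gut, and B6 is C57BL/6J. All mice were male, 8 weeks old and of inbred strains, and sham mice had the abdomen opened and closed with the duct left alone. Jejunum was taken on day 7 after surgery, and total RNA was hybridised to 12 arrays, 3 per group. Signals are log2 values, so a difference of 1 is a doubling. No source says whether an array held 1 mouse or several, so a p-value measures the spread between these samples.

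Nitric oxide is made from arginine by the nitric oxide synthases, which leave citrulline behind. Ass1 and Asl turn citrulline back into arginine, arginases break arginine down to ornithine and urea, and membrane carriers such as the one encoded by Slc7a9 bring cationic amino acids into the enterocyte. Protein arginine methyltransferases such as Prmt1 give rise, once methylated proteins are degraded, to asymmetric dimethylarginine, an inhibitor of all nitric oxide synthases, and the enzymes encoded by Ddah1 and Ddah2 were described as clearing it. In the gut wall, nitric oxide relaxes smooth muscle and regulates blood flow and the epithelial barrier.

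The 250 bases before the RefSeq start of Ddah1 and of its paralogue Ddah2 are shown because the array signals of the pair are set side by side in what follows. Both are from GRCm38.p6, on the plus strand, written 5′ to 3′. Capitals mark matches to any of 6 motifs searched on both strands: the TATA box TATAAA, the CCAAT box, the GC box GGGCGG, the nuclear receptor element AGGTCA, the STAT site TTCNNNGAA and the sterol regulatory element TCACNCCAC.
Ddah1, chr3:145758442-145758691: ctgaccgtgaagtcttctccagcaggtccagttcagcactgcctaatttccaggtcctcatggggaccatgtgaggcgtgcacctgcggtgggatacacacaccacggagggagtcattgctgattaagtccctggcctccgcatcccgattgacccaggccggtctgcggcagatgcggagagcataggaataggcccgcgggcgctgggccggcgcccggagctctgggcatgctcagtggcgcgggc
Ddah2, chr17:35058785-35059034: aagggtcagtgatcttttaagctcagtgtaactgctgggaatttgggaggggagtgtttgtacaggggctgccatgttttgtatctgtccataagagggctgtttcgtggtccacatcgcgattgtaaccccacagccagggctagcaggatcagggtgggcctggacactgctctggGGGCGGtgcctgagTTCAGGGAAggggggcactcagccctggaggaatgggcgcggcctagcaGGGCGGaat
The Ddah1 window had none of the 6 motifs and a GC content of 64%. The Ddah2 window had a GC content of 58%, with GGGCGG at 72 and 9 bases before the start and TTCNNNGAA at 58 bases before it. Among 32851 windows of the same length, 32.7% held GGGCGG, 33.8% CCAAT, 14% AGGTCA, 12.4% TATAAA, 7.02% TTCNNNGAA and 1.05% TCACNCCAC. These letters describe the sequence and were not tested as binding sites. Windows were held for 6 of the 10 genes.

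The tissue label was checked against marker lists. The mean of 16 enterocyte markers lay between 11.4 and 11.6 in every array. Hepatocyte markers were also present and moved with the operation: the mean of the 24 measured of 25 listed was 7.83 to 8.29 after CBDL and 4.82 to 5.16 after sham surgery in A/J, and 7.77 to 8.09 after CBDL and 5.80 to 7.93 after sham surgery in B6. The highest B6 sham value came from replicate 3, which lay within the CBDL range, while the other B6 sham arrays had 5.80 and 6.60. Of the 24 hepatocyte markers, 19 rose in A/J CBDL, where 0.63% of all probe sets did, with a median difference of 3.33. In B6 CBDL 0 passed the test, where 0.0534% of all probe sets did, with a median difference of 1.03. By its hepatocyte mean, B6 sham replicate 3 stands apart from its group, and several values below are given with and without it. The marker counts here include that array.
Smooth muscle markers also differed, in B6: the mean of the 10 listed was 6.84 to 7.40 after CBDL and 7.92 to 8.50 after sham surgery in B6, with no overlap, and 7.71 to 8.25 after CBDL and 6.74 to 8.45 after sham surgery in A/J, where sham replicate 1 was the lowest array. Of these 10 markers 0 passed the limma test in either strain, with a median difference of -1.28 in B6 and 0.26 in A/J.

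Ddah1, whose product hydrolyses asymmetric dimethylarginine to citrulline, had log2 signals of 7.31, 8.14 and 7.45 in A/J CBDL, against 5.90, 6.35 and 5.81 in A/J sham. In B6 CBDL it had 7.77, 7.42 and 7.72, against 5.92, 6.11 and 6.17 in B6 sham. Every ligated array was above every sham array, in both strains, and the gap between the lowest ligated and the highest sham array was wider than the range within any of the groups. Within a strain, a separation with CBDL higher was found for 8.04% of all probe sets in A/J and 7.89% in B6.
In A/J the means were 7.64 ± 0.45 after CBDL and 6.02 ± 0.29 after sham surgery, and in B6 they were 7.64 ± 0.19 after CBDL and 6.07 ± 0.13 after sham surgery (SD, n = 3 each). The difference of CBDL minus sham was 1.62 in A/J (SE 0.21, 95% interval 1.15 to 2.09, a 3.07-fold higher signal) and 1.57 in B6 (SE 0.21, 95% interval 1.10 to 2.04, 2.97-fold). Over both strains it was 1.59 (SE 0.15, 95% interval 1.26 to 1.93). The order of the 4 groups was thus both ligated groups above both sham groups, and within each operation the strains overlapped.

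**Figure D1:**
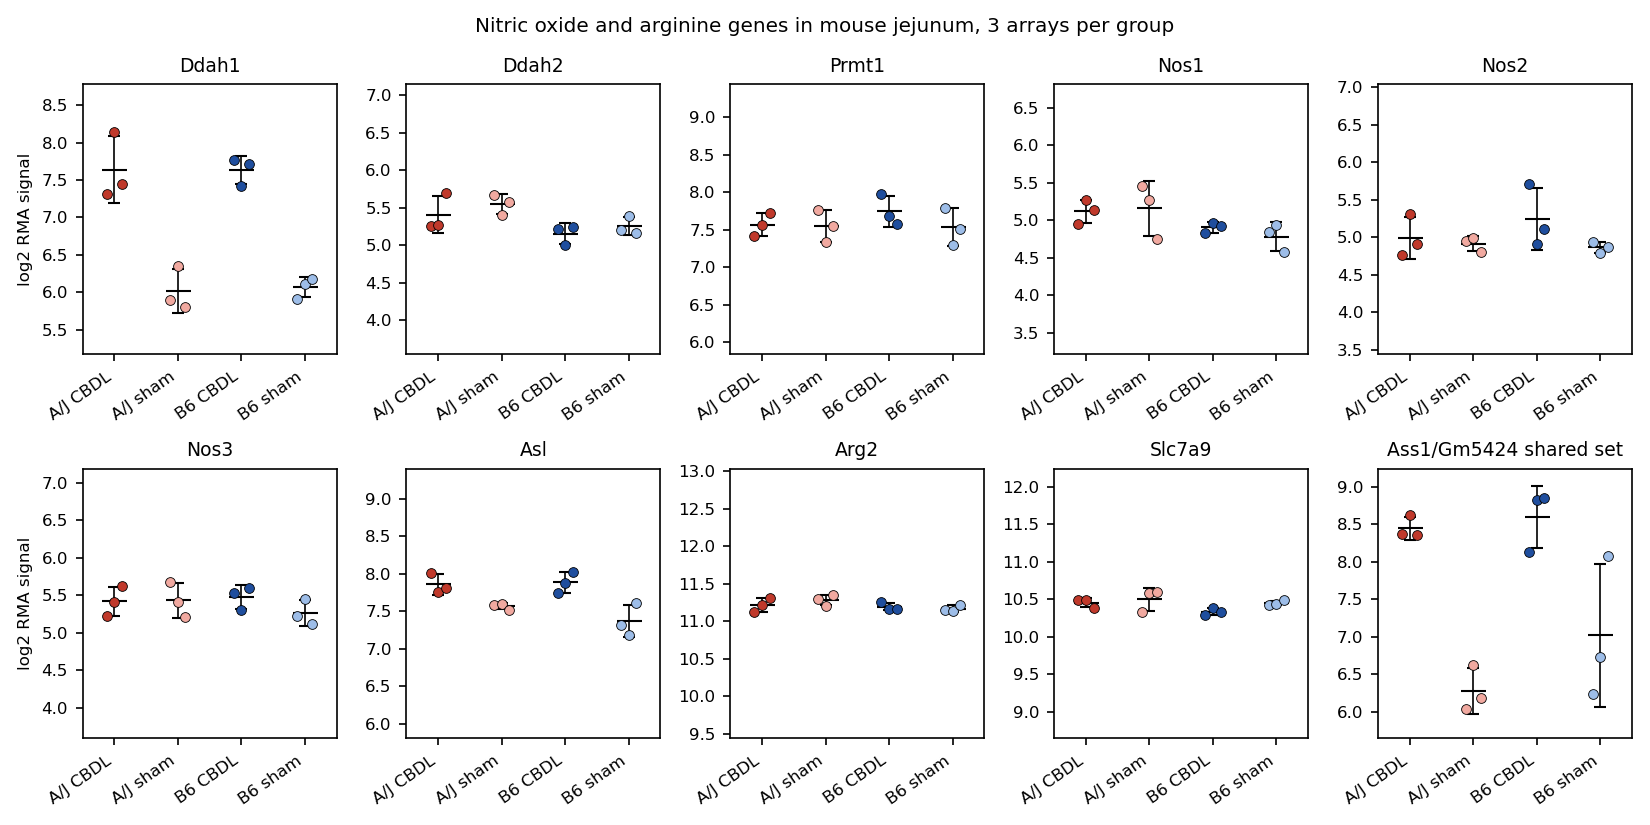
Log2 RMA signal (vertical axis, each panel spanning the same range of log2 units) of the 9 measured genes and of 1 probe set shared by Ass1 and Gm5424, in A/J CBDL, A/J sham, B6 CBDL and B6 sham. Points are arrays, and the horizontal marks and bars are the mean and SD of 3 arrays. Ddah1 sat between 7.31 and 8.14 in ligated mice and between 5.81 and 6.35 in sham mice, and Asl was separated by a smaller gap.

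The choice of Ddah1 rested on its ligation differences and on the gap between them. That gap equals the A/J minus B6 difference after CBDL less the one after sham surgery. The strain tests given here are therefore not fully independent of the choice. Ddah1 differed by -0.05 in A/J sham minus B6 sham (SE 0.21, 95% interval -0.52 to 0.42, limma adjusted p = 0.933). In A/J CBDL minus B6 CBDL the difference was -0.00 (95% interval -0.47 to 0.47, adjusted p = 0.998). The ligation difference in A/J exceeded that in B6 by 0.05 (SE 0.30, 95% interval -0.62 to 0.72), so the interval still holds strain differences in response of up to 0.72 log2 units.

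Ddah1 was set beside the hepatocyte markers in each array. Its signal in B6 sham replicate 3 was 6.17, beside a hepatocyte marker mean of 7.93, and in the other B6 sham arrays it was 5.92 and 6.11, beside means of 5.80 and 6.60. In that 1 array the hepatocyte mean lay within the range of ligated mice and the Ddah1 signal within the range of sham mice. Without it the B6 difference for Ddah1 was 1.62 (SE 0.25). Across the 12 arrays, which share the 4 groups, Pearson's r between Ddah1 and the hepatocyte mean was 0.80. The part of hepatocyte RNA in the Ddah1 signal was not tested. In such bulk tissue, a change in the number of cells of a type and a change in RNA per cell cannot be told apart.

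Ddah2, the paralogue, had 5.26, 5.27 and 5.69 in A/J CBDL, against 5.66, 5.40 and 5.58 in A/J sham. In B6 it had 5.22, 5.0 and 5.25 after CBDL, against 5.21, 5.39 and 5.16 after sham surgery. Ligated and sham arrays overlapped in both strains. The difference was -0.14 in A/J (95% interval -0.44 to 0.16, adjusted p = 0.686) and -0.10 in B6 (95% interval -0.40 to 0.20, adjusted p = 0.948). All 3 A/J arrays were above all 3 B6 arrays in each operation, by 0.25 after CBDL (adjusted p = 0.454) and by 0.29 after sham surgery (adjusted p = 0.328), and neither passed the test. Such a separation with A/J higher was found for 10.4% of all probe sets in the CBDL groups and for 9.15% in the sham groups.

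Prmt1, the main source of asymmetric dimethylarginine in cells, had 7.42, 7.57 and 7.72 in A/J CBDL, against 7.77, 7.34 and 7.55 in A/J sham. In B6 it had 7.98, 7.68 and 7.57 after CBDL, against 7.80, 7.30 and 7.51 after sham surgery. The groups overlapped in both strains. The differences were 0.02 in A/J (95% interval -0.34 to 0.37, adjusted p = 0.975) and 0.21 in B6 (95% interval -0.15 to 0.57, adjusted p = 0.877). Across the 12 arrays, r between Prmt1 and the smooth muscle mean was -0.81, and the part of muscle RNA in its signal was not tested.

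The 3 nitric oxide synthases came next. Nos1, the neuronal form found in enteric neurons, had 4.95, 5.26 and 5.14 in A/J CBDL, against 5.45, 5.26 and 4.75 in A/J sham. It had 4.83, 4.96 and 4.92 in B6 CBDL, against 4.84, 4.93 and 4.57 in B6 sham. Operations overlapped in each strain, with differences of -0.04 in A/J (adjusted p = 0.945) and 0.12 in B6 (adjusted p = 0.948).
Between strains, Nos1 differed by 0.37 in A/J sham minus B6 sham (SE 0.17, 95% interval 0.00 to 0.75), which had an adjusted p of 0.320 and did not pass. A/J sham replicate 3 was the low array of its group, and without it the difference was 0.58 and passed (limma adjusted p = 0.0481). Leaving out that array also took the calls over all probe sets from 665 to 1324. Without B6 sham replicate 3 the Nos1 difference was 0.27 (adjusted p = 0.647). Nos1 did not pass in any other alternative.

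Nos2, the inducible form made by activated macrophages and epithelium, had 4.77, 5.31 and 4.91 in A/J CBDL, against 4.95, 4.99 and 4.80 in A/J sham. In B6 CBDL it had 5.71, 4.91 and 5.11, against 4.94, 4.79 and 4.87 in B6 sham. B6 CBDL replicate 1 was the highest of the 12 arrays, and its group still overlapped the sham group. The differences were 0.08 in A/J (95% interval -0.34 to 0.51, adjusted p = 0.887) and 0.38 in B6 (95% interval -0.04 to 0.80, adjusted p = 0.711). The mean of 11 macrophage and neutrophil markers ran from 5.32 to 5.59 in A/J CBDL, 5.24 to 5.48 in A/J sham, 5.27 to 5.38 in B6 CBDL and 5.39 to 5.49 in B6 sham.

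Nos3, the endothelial form, had 5.22, 5.42 and 5.62 in A/J CBDL, against 5.67, 5.42 and 5.21 in A/J sham. It had 5.54, 5.30 and 5.60 in B6 CBDL, against 5.23, 5.45 and 5.11 in B6 sham. The groups overlapped, with differences of -0.01 in A/J (95% interval -0.34 to 0.32, adjusted p = 0.979) and 0.21 in B6 (95% interval -0.12 to 0.55, adjusted p = 0.855). The signals of the synthases lay near the array medians of 5.36 to 5.51.

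Among the genes that rebuild arginine from citrulline, Asl, argininosuccinate lyase, had 8.02, 7.76 and 7.81 in A/J CBDL, against 7.59, 7.60 and 7.52 in A/J sham. In B6 it had 7.75, 7.88 and 8.02 after CBDL, against 7.32, 7.19 and 7.61 after sham surgery. Every ligated array was above every sham array of its strain. This held, with CBDL higher, for 8.04% of all probe sets in A/J and 7.89% in B6.
Asl did not pass the test within A/J (0.29, SE 0.12, adjusted p = 0.319) or within B6 (0.51, SE 0.12, adjusted p = 0.204), and over both strains it rose by 0.40 (SE 0.09, 95% interval 0.21 to 0.59, adjusted p = 0.0468), a 1.32-fold higher signal. The adjusted p ran from 0.0157 to 0.124 over the alternative settings, and leaving out any single array other than B6 sham replicate 3 ended the call. Without B6 sham replicate 3, where Asl was the highest of its group, the difference was 0.63 in B6 (adjusted p = 0.0912) and 0.46 over both strains (adjusted p = 0.0203).

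Ass1, argininosuccinate synthase, could not be measured by a probe set of its own. The first probe set that lists Ass1 together with Gm5424 had 8.36, 8.63 and 8.36 in A/J CBDL, against 6.04, 6.63 and 6.18 in A/J sham. In B6 it had 8.12, 8.82 and 8.85 after CBDL, against 6.24, 6.73 and 8.08 after sham surgery. The high sham value was again from B6 sham replicate 3.
These shared probe sets lay outside the rule and were taken up after their values had been seen, so their ligation differences also have no test. The first differed by 2.17 in A/J (SE 0.39) and by 1.58 in B6 (SE 0.39), and by 2.12 in B6 without replicate 3 of the sham group. The second differed by 2.31 in A/J (SE 0.40) and by 1.62 in B6 (SE 0.40), and by 2.19 in B6 without that array. Across the 12 arrays their r with the hepatocyte mean was 0.95 and 0.96, against 0.80 for Ddah1 and 0.60 for Asl. The part of hepatocyte RNA in these signals was not tested.

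**Figure D2:**
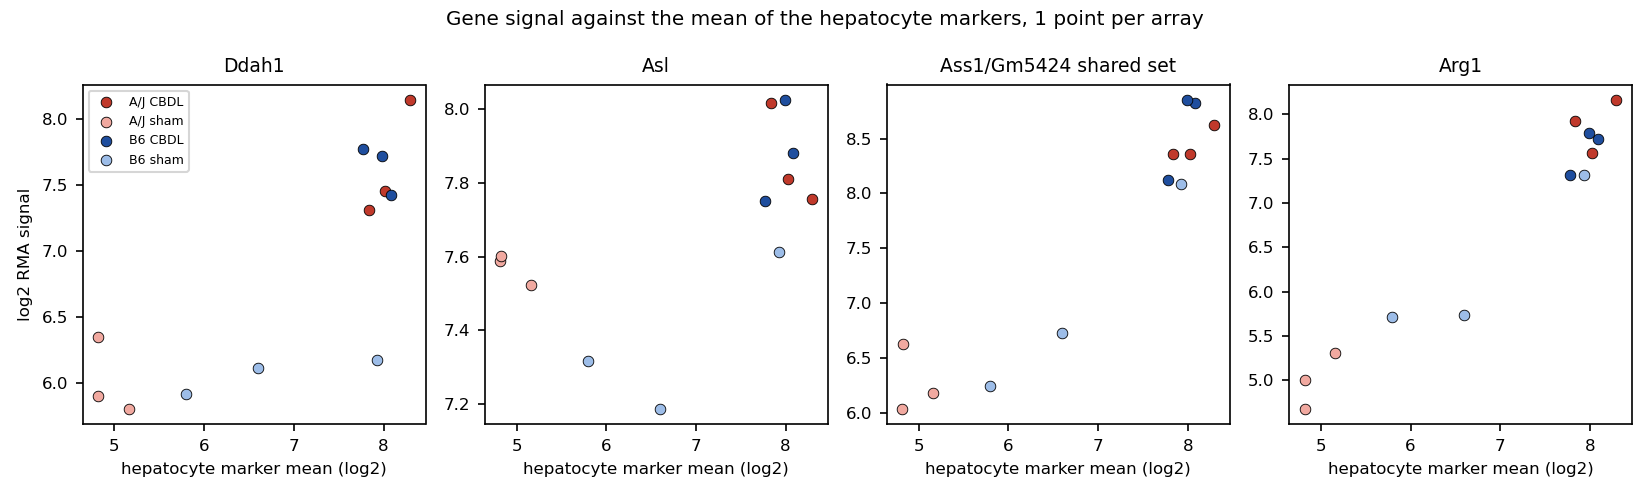
Log2 RMA signal of Ddah1, Asl, the first probe set shared by Ass1 and Gm5424, and Arg1 (vertical axes) against the mean log2 signal of 24 hepatocyte markers (horizontal axes), 1 point per array, coloured by group. B6 sham replicate 3, the light blue point at a hepatocyte mean of 7.93, has a Ddah1 signal of 6.17 beside the other sham arrays, and shared-probe and Arg1 signals of 8.08 and 7.31 beside the ligated arrays.

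Arg2, the mitochondrial arginase of the intestine and other tissues outside the liver, had 11.13, 11.22 and 11.31 in A/J CBDL, against 11.30, 11.21 and 11.35 in A/J sham. It had 11.25, 11.17 and 11.16 in B6 CBDL, against 11.15, 11.13 and 11.22 in B6 sham. All 12 arrays fell within a narrow band and the operations overlapped. The differences were -0.07 in A/J (95% interval -0.25 to 0.11, adjusted p = 0.761) and 0.03 in B6 (95% interval -0.15 to 0.21, adjusted p = 0.981), the tightest intervals of the measured genes.

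Slc7a9, the brush border carrier of cystine and cationic amino acids, had 10.50, 10.49 and 10.38 in A/J CBDL, against 10.33, 10.58 and 10.60 in A/J sham. In B6 CBDL it had 10.29, 10.38 and 10.33, against 10.43, 10.44 and 10.49 in B6 sham. In B6 every ligated array was below every sham array, as for 7.62% of all probe sets, and in A/J they overlapped. The difference was -0.11 in B6 (95% interval -0.31 to 0.09, adjusted p = 0.885) and -0.05 in A/J (95% interval -0.25 to 0.15, adjusted p = 0.865). Its r was 0.75 with the smooth muscle mean and 0.82 with the enterocyte mean, and their part in its signal was not tested.

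Counted over the 8 measured genes other than Ddah1, 0 passed the limma test at an adjusted p under 0.05 in A/J CBDL against A/J sham. Of all probe sets 0.818% passed there. An unadjusted p under 0.05 was found for 1 of the 8 and for 14.2% of all probe sets. In B6 CBDL against B6 sham 0 of 8 passed, where 0.0534% of all probe sets did. There 1 had an unadjusted p under 0.05, as did 7.64% of all probe sets. Over both strains 1 of 8, Asl, passed, where 1.74% of all probe sets did, and 1.12% did so with CBDL higher. The listed genes were chosen with earlier results of these data known, so the counts are a description and no independent test. Without B6 sham replicate 3 the counts were also 0 of 8 in B6, where 0.188% of all probe sets passed, and 1 of 8, again Asl, over both strains, where 1.36% did.
For the strain differences, Ddah1 was counted as well, although its strain tests are not fully independent of its choice. In the sham groups 0 of 9 genes passed, where 1.87% of all probe sets did (0.579% higher and 1.29% lower in A/J). There 1 had an unadjusted p under 0.05, as did 15.4% of all probe sets. In the CBDL groups 0 of 9 passed, where 1.78% did (0.562% higher and 1.22% lower in A/J). There 0 had an unadjusted p under 0.05, against 13.7% of all probe sets. In the interaction, which asks whether ligation acted differently in A/J and B6, 0 of 8 genes passed, where 0.0366% of all probe sets did. An unadjusted p under 0.05 was found for 0 of the 8 and for 6.88% of all probe sets. The estimates there ran from -0.30 for Nos2 to 0.07 for Slc7a9, with 95% intervals up to 0.60 wide on either side.

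**Figure D3:**
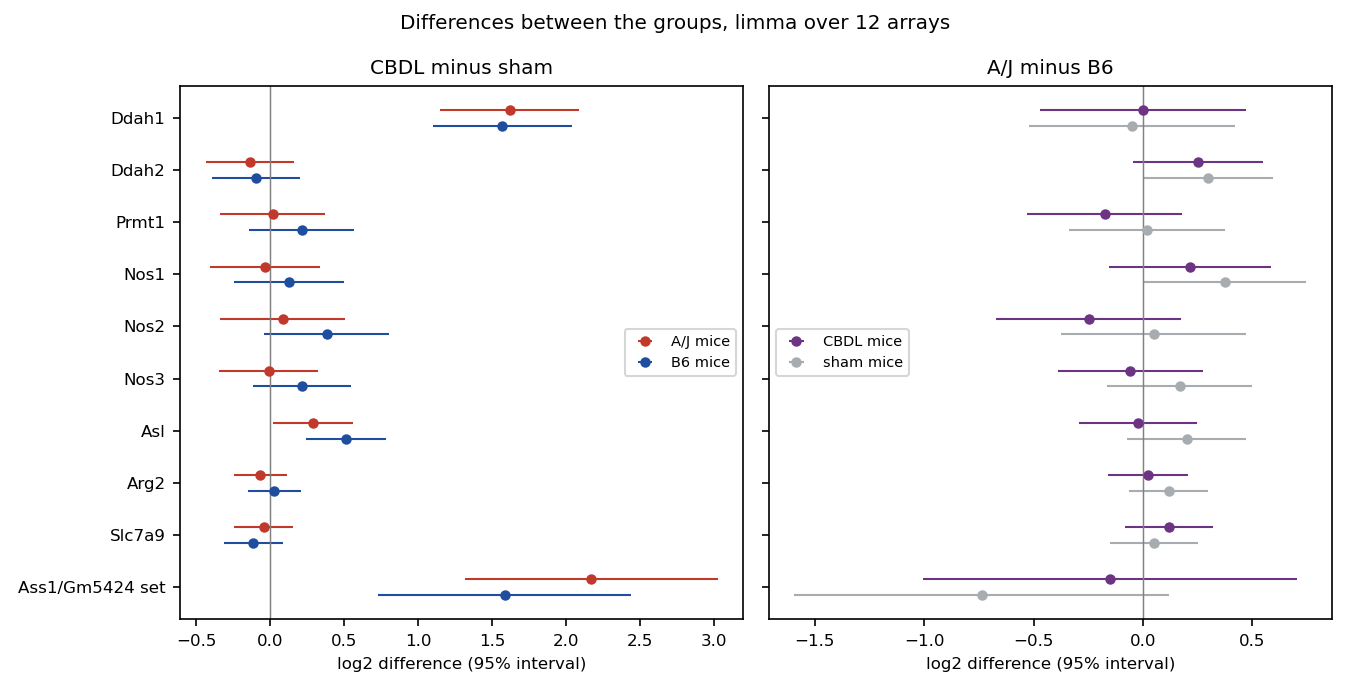
Log2 differences (horizontal axes) with 95% intervals from limma over 12 arrays, for the 9 measured genes and the first probe set shared by Ass1 and Gm5424. The left panel gives CBDL minus sham in A/J and B6, where the Ddah1 intervals start at 1.15 and 1.10 and those of Arg2 end at 0.11 and 0.21, and the right panel gives A/J minus B6 in CBDL and sham mice, where the Ddah1 intervals span 0.

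The wider pathway was read through 6 lists holding 82 further genes, 72 of them with a single-symbol probe set. These lists were chosen with earlier results of these data known. Counts from them, here and in later paragraphs, are therefore a description and no test of the pathway against all probe sets. In A/J, 2 rose and 2 fell after CBDL and 68 did not pass the test (5.56% called), where 0.63% of all probe sets rose and 0.188% fell. In B6, 0 passed by limma, where 0.0534% of all probe sets did, and 18 (of 72) had an unadjusted p under 0.05, as did 7.64% of all probe sets. Without B6 sham replicate 3, 2 of 72 rose in B6, Arg1 and Agxt2, where 0.188% of all probe sets passed in either direction. Over both strains 5 rose and 4 fell (12.5% called), where 1.12% of all probe sets rose and 0.616% fell, with a median difference of -0.01 over the 72 genes and of -0.01 over all probe sets. The genes called with all 12 arrays lay in 4 of the 6 lists. Without B6 sham replicate 3, 5 rose and 2 fell over both strains, where 1.36% of all probe sets passed in either direction. Glul was then called, and Aldh18a1, Prodh and Smox were not. In A/J, 3 rose and 2 fell without that array, with Agxt2 added, where 0.982% of all probe sets passed in either direction. The shares of 1.12% higher and 0.616% lower also apply to the counts over both strains given by list below.

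The list of arginine and citrulline synthesis and the urea cycle held 12 measured genes besides Asl, of which 2 rose and 2 fell over both strains. Aldh18a1, the enterocyte enzyme that starts ornithine and proline synthesis from glutamate, had 8.37, 9.14 and 9.01 in A/J CBDL, against 10.29, 10.10 and 9.87 in A/J sham. In B6 CBDL it had 9.91, 9.60 and 9.17, against 9.98, 9.69 and 9.83 in B6 sham. The A/J groups did not overlap, with CBDL lower as for 9.07% of all probe sets, and the B6 groups did.
Aldh18a1 fell by 1.25 in A/J (SE 0.22, adjusted p = 0.0315), and its difference in B6 was -0.27 (SE 0.22, adjusted p = 0.893). The difference between these was -0.98 (95% interval -1.68 to -0.28) and did not pass the test (adjusted p = 0.627). The A/J call was lost when the model held the A/J arrays alone (adjusted p = 0.0988) and when any of 6 single arrays was left out (adjusted p 0.0533 to 0.119): the 3 A/J CBDL arrays, A/J sham replicates 1 and 2, and B6 CBDL replicate 2. Its r with the hepatocyte mean was -0.68.

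Oat, ornithine aminotransferase, which links glutamate semialdehyde and ornithine, had 10.46, 10.61 and 10.48 in A/J CBDL, against 11.71, 11.51 and 11.43 in A/J sham. In B6 it had 11.26, 11.22 and 11.06 after CBDL, against 11.36, 11.61 and 11.60 after sham surgery. Every ligated array was below every sham array in both strains, as for 9.07% of all probe sets in A/J and 7.62% in B6. Oat fell by 1.03 in A/J (SE 0.11, adjusted p = 0.0029) and by 0.69 over both strains (SE 0.08, adjusted p = 0.00193), calls kept in every alternative run. In B6 the difference was -0.34 (SE 0.11, adjusted p = 0.383), and the interaction was -0.69 (95% interval -1.03 to -0.36, adjusted p = 0.367). Its r with the hepatocyte mean was -0.64.

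Arg1, the arginase of the hepatic urea cycle, had 7.93, 8.16 and 7.56 in A/J CBDL, against 5.01, 4.68 and 5.31 in A/J sham. In B6 it had 7.32, 7.72 and 7.79 after CBDL, against 5.72, 5.73 and 7.31 after sham surgery, where B6 sham replicate 3 lay beside the ligated arrays. Arg1 rose by 2.88 in A/J (SE 0.37, adjusted p = 0.00709), and its difference in B6 was 1.36 (SE 0.37, adjusted p = 0.291), or 1.89 without B6 sham replicate 3, which passed (SE 0.22, adjusted p = 0.012). Over both strains it rose by 2.12 (SE 0.26, adjusted p = 0.0035), and by 2.38 without B6 sham replicate 3. Its r with the hepatocyte mean over the 12 arrays was 0.97, and the part of hepatocyte RNA in it was not tested. Prodh, proline dehydrogenase, rose by 0.61 over both strains (SE 0.13, adjusted p = 0.0375), a call that leaving out 1 array ended in 10 of 12 cases (adjusted p 0.0592 to 0.105) and that held without A/J CBDL replicate 3 or B6 CBDL replicate 1. Its r with the hepatocyte mean was 0.70.

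**Figure D4:**
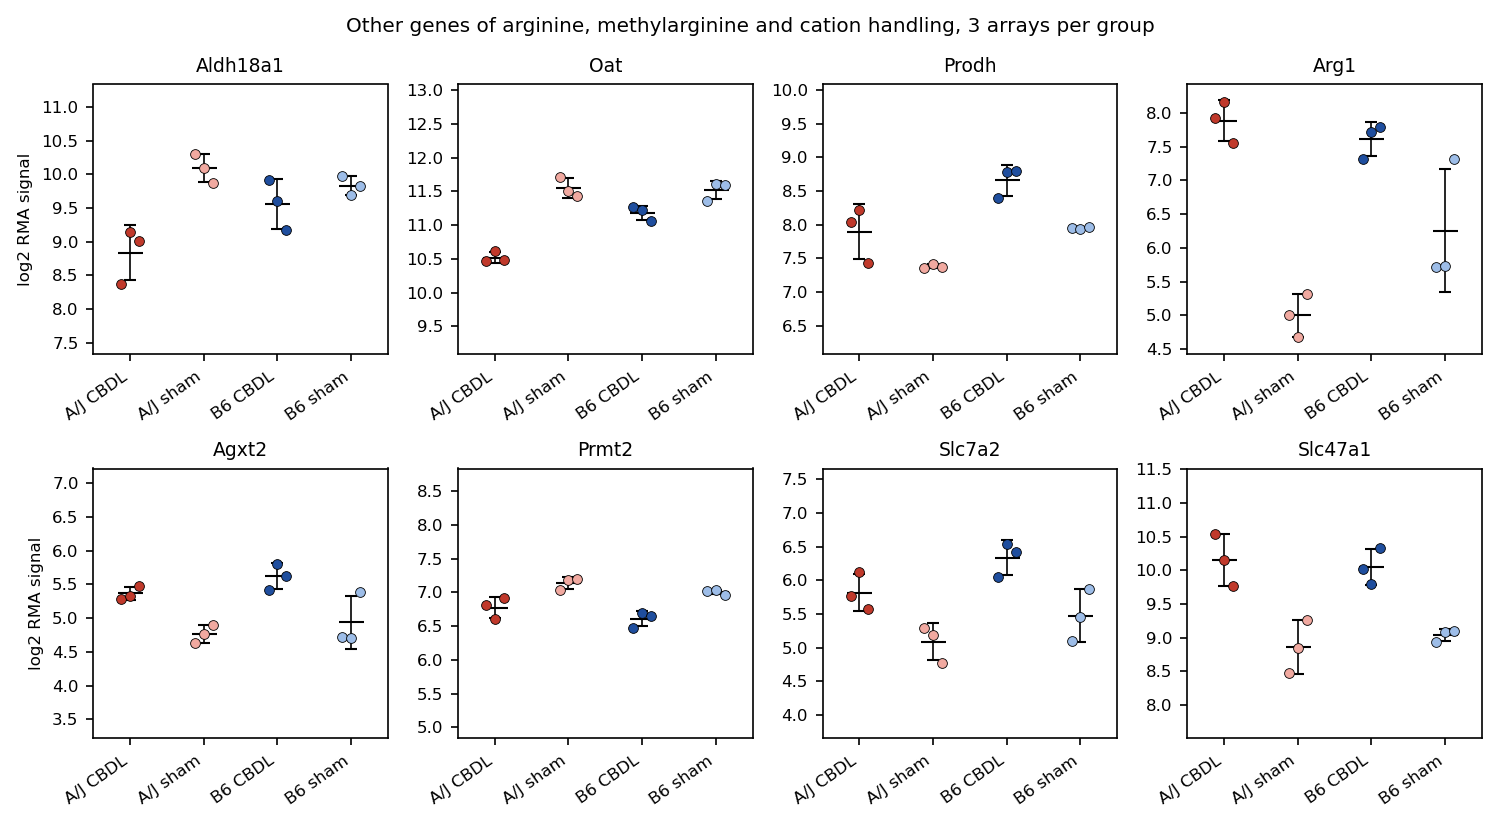
Log2 RMA signal (vertical axis, each panel spanning the same range) of 8 further pathway genes in A/J CBDL, A/J sham, B6 CBDL and B6 sham, with points for arrays and marks and bars for the mean and SD of 3 arrays. Oat lay between 10.46 and 10.61 in A/J CBDL, below the other 3 groups, and Arg1 in B6 sham was split into 2 low arrays and 1 at 7.31.

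Of 9 other methylarginine genes, 1 rose and 1 fell over both strains. Agxt2, which transaminates dimethylarginines and is made mainly in liver and kidney, had 5.29, 5.33 and 5.48 in A/J CBDL, against 4.63, 4.77 and 4.90 in A/J sham. It had 5.42, 5.81 and 5.63 in B6 CBDL, against 4.72, 4.70 and 5.39 in B6 sham. Ligated arrays were above sham arrays in both strains, as for 8.04% of all probe sets in A/J and 7.89% in B6.
Agxt2 rose by 0.64 over both strains (SE 0.13, adjusted p = 0.0308), and its r with the hepatocyte mean was 0.87. Without B6 sham replicate 3 it rose by 0.75 over both strains (adjusted p = 0.00223), by 0.91 in B6 (adjusted p = 0.0319, against 0.259 with that array) and by 0.60 in A/J (adjusted p = 0.0498, against 0.160). Prmt2, an arginine methyltransferase, fell by 0.38 over both strains (SE 0.07, adjusted p = 0.0257), and its r was -0.79 with the hepatocyte mean and 0.82 with the enterocyte mean. Leaving out 1 array ended the call of Agxt2 in 9 of 12 cases (adjusted p 0.0538 to 0.0820), all but A/J sham replicate 3, B6 CBDL replicate 1 and B6 sham replicate 3. It ended the call of Prmt2 in 7 of 12 cases (adjusted p 0.0532 to 0.0751), all but A/J CBDL replicate 3, A/J sham replicates 1 and 3, B6 CBDL replicate 2 and B6 sham replicate 3.

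Of 12 transporters besides Slc7a9, 2 rose over both strains. Slc47a1, which is an exporter of organic cations and not an amino acid carrier, had 10.54, 10.15 and 9.77 in A/J CBDL, against 8.47, 8.84 and 9.26 in A/J sham. It had 10.02, 9.79 and 10.33 in B6 CBDL, against 8.94, 9.08 and 9.10 in B6 sham. The operations did not overlap in either strain, with CBDL higher as for 8.04% of all probe sets in A/J and 7.89% in B6.
Slc47a1 rose by 1.29 in A/J (SE 0.23, adjusted p = 0.0283) and by 1.15 over both strains (SE 0.16, adjusted p = 0.00655), and its difference in B6 was 1.00 (SE 0.23, adjusted p = 0.177). The A/J call was lost without any 1 of A/J CBDL replicates 1 and 2 and A/J sham replicates 1 and 2 (adjusted p 0.0685 to 0.112) and with the A/J arrays alone (adjusted p = 0.144), and the call over both strains was kept without any single array. Slc7a2, a carrier of arginine and lysine expressed in liver, rose by 0.79 over both strains (SE 0.16, adjusted p = 0.0333), a call that held only without A/J CBDL replicate 3, A/J sham replicate 1, B6 CBDL replicate 1 or B6 sham replicate 3 when arrays were left out (adjusted p 0.0558 to 0.0925 for the other 8). Their r with the hepatocyte mean was 0.80 for Slc47a1 and 0.84 for Slc7a2.

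Of 10 genes of arginine use and polyamines besides Arg2, Smox, spermine oxidase, fell by 0.40 over both strains (SE 0.08, adjusted p = 0.0411) and the other 9 did not pass. Its call held without A/J CBDL replicate 3 or A/J sham replicate 1 and was lost without any 1 of the other 10 arrays (adjusted p 0.0517 to 0.112), and its r with the hepatocyte mean was -0.87. Of the 12 cofactor and partner proteins of the synthases, 0 passed over both strains by limma and 5 had an unadjusted p under 0.05, with differences from -0.43 to 0.33. Of the 17 receptor, cyclic GMP and S-nitrosothiol genes, 0 passed and 3 had an unadjusted p under 0.05. Over all probe sets, 14.1% had an unadjusted limma p under 0.05 in this comparison.

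**Figure D5:**
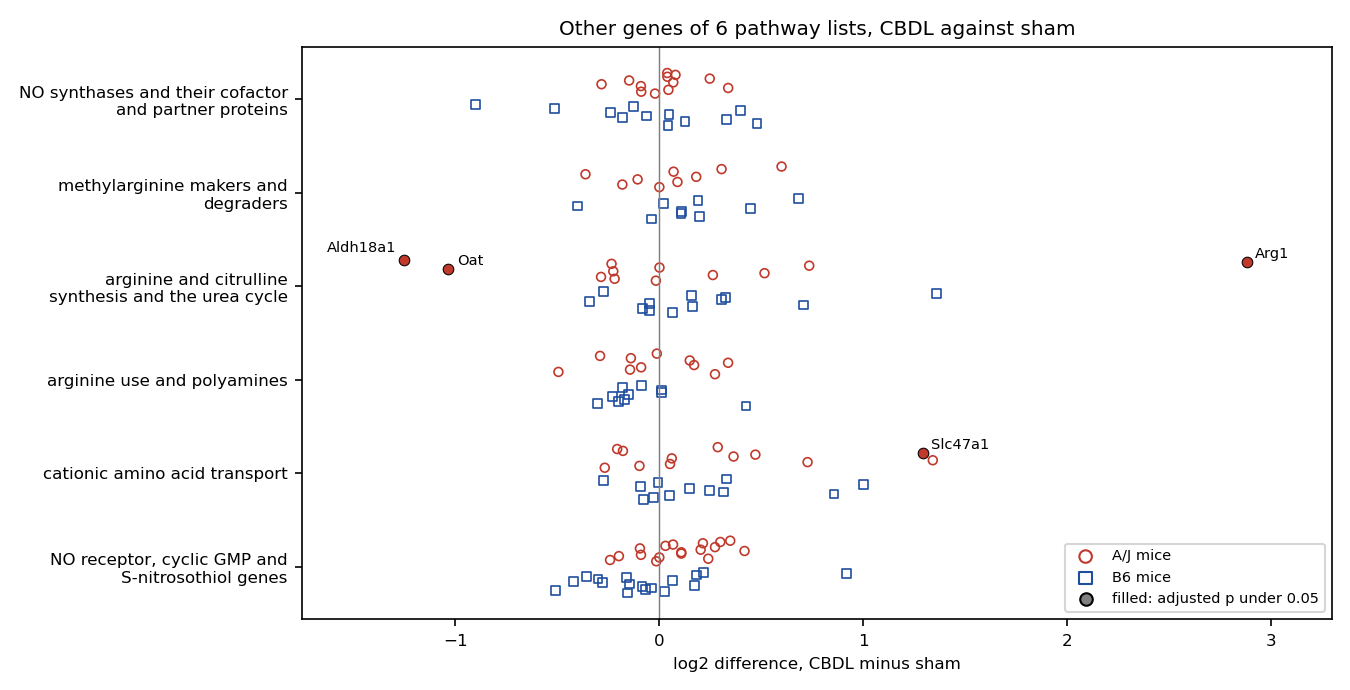
Log2 difference, CBDL minus sham (horizontal axis), of the 72 measured genes of 6 pathway lists (rows), with circles for A/J and squares for B6 and filled symbols for an adjusted p under 0.05. The 4 filled symbols are Arg1 at 2.88, Slc47a1 at 1.29, Oat at -1.03 and Aldh18a1 at -1.25, all in A/J.

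The genes whose signal followed Ddah1 most closely over the 12 arrays, among 19937 others, were Eef2 (Pearson's r 0.979), Srebf2 (0.957), Itih3 (0.938), Apcs (0.936) and Sult1a1 (0.934). Eef2 encodes a translation elongation factor, Srebf2 the sterol-regulated transcription factor SREBP2, Itih3 and Apcs plasma proteins, and Sult1a1 a sulfotransferase. These values describe arrays that share 4 groups. Once group means were removed, the closest were Dvl3 (0.956), Crhr2 (0.952), Ranbp10 (0.939), Brpf3 (0.929) and Mapkapk2 (0.927), with no gene in both lists. Within A/J CBDL, replicate 2 was the highest array for Ddah1 (8.14) and for each of the genes closest once group means were removed. How far that array carries these correlations was not tested.
Eef2 was 0.36 higher after CBDL in A/J and 0.34 in B6, and Srebf2 0.55 and 0.57, so both had ligation differences of similar size in the strains, with SEs of 0.08 and 0.09. Within the pathway, r with Ddah1 over the 12 arrays was 0.88 and 0.87 for the probe sets shared by Ass1 and Gm5424, 0.76 for Asl and 0.59 for Nos2, and ran from -0.38 for Slc7a9 to 0.32 for Nos3 among the other 6. Once group means were removed it was 0.33 and 0.27 for the shared probe sets, -0.16 for Asl and 0.67 for Nos2, and ran from -0.23 for Ddah2 to 0.32 for Nos1 among the other 6. Nos2 was also highest in replicate 2 among the A/J CBDL arrays (5.31).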

How the data were processed

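Total RNA from jejunum was measured on 12 Affymetrix arrays (3 per group). The authors deposited log2 signals for 35556 probe sets, made by RMA in the Affymetrix Expression Console per the labels. Software versions were not stated there. The published methods instead name GCRMA and a different Affymetrix mouse array, whereas the probe set numbers match the platform table of the Mouse Gene 1.0 ST array. RMA subtracts background, equalises the arrays' distributions and summarises probes, so only relative levels of a probe set were compared. Deposited values ran from 1.57 to 14.4 and were used unchanged.

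Genes were named through the platform annotation, which can be old: 21789 probe sets have 1 symbol, 1621 several and 12146 none. Of 82 further pathway genes, 10 had no single-symbol probe set. The genes, pathway lists and marker lists were chosen with earlier results of these data known. Every listed gene is named, as are pathway genes called in any comparison (at most 4 per list and comparison, largest change first) and the 5 genes most correlated with Ddah1 by either measure.

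Groups came from the sample labels. All arrays entered 1 limma model with a mean for each of the 4 groups (limma 3.58.1, R 4.3.3, empirical Bayes variances), and 6 contrasts were taken. Calls used 0.05 as the limit on p after Benjamini-Hochberg adjustment across the whole table. Intervals are 95% intervals from that model. The procedure was tested on simulated data. With 3 arrays per group, the number of arrays limits the precision. Arrays with the same replicate number had deviations correlated at -0.31 to 0.36, so they were not paired. Alternatives were the arrays compared alone, the 30% dimmest probe sets left out, probe sets with 1 symbol only, quantile normalization, median subtraction, a trended robust prior, array weights, a replicate block and each array left out. Start windows are RefSeq's, on GRCm38.p6.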

Additional observations from a re-analysis of the deposited data

How the results depend on the processing

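For Ddah1, CBDL minus sham stayed between 1.36 and 1.78 in A/J and between 1.49 and 1.68 in B6 in all 20 alternatives run for each. The count of the other 8 genes called over both strains, 1 (Asl), became 0 with quantile normalization (adjusted p of Asl 0.0563), with each array's median subtracted (0.0787) and with the replicate block (0.0836), and ranged from 0 to 1 when single arrays were left out, staying at 1 without B6 sham replicate 3 alone. The count called between the sham groups, 0 of 9, ranged from 0 to 1 when single arrays were left out, with Nos1 called without A/J sham replicate 3. The counts in A/J, in B6, between the CBDL groups and in the interaction were 0 in every alternative. No called value reversed. The cause of these changes was not tested.

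With the arrays compared alone, the calls of Aldh18a1 (adjusted p 0.0988) and Slc47a1 (0.144) in A/J and Guca2a between sham groups (0.0534) were lost. The replicate block also ended the calls of Aldh18a1 (adjusted p 0.0696 in A/J and 0.0813 over both strains), Slc47a1 in A/J (0.0687), Prmt2 (0.0550), Prodh (0.0658), Smox (0.0963) and Slc7a2 (0.0540), and no other call of a named gene. The call of Aldh18a1 over both strains was lost without any 1 of 9 arrays (adjusted p 0.0598 to 0.104) and held without A/J CBDL replicate 2, A/J sham replicate 3 or B6 CBDL replicate 1.

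Over all probe sets, the alternatives gave 90 (without A/J sham replicate 2) to 1299 calls (array weights) in A/J, where 291 were made. They gave 1 (the arrays compared alone) to 167 (array weights) in B6, where 19 were made and 67 without B6 sham replicate 3. They gave 269 to 1510 over both strains (617 made), 271 to 3044 between sham groups (665), 290 to 1261 between CBDL groups (634) and 0 to 28 in the interaction (13). Without B6 sham replicate 3 alone, 375 were called between sham groups and 0 in the interaction. The mean over several probe sets of a gene was not run, since each measured gene has 1. The number of arrays limits the precision, as the printed intervals show.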

Other observations

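Strain differences among the wider pathway genes were counted in both operations. Between the sham groups 1 of 72 genes (1.39%) passed the test, where 1.87% of all probe sets did: Guca2a, guanylin, a peptide of goblet and other epithelial cells that raises cyclic GMP through guanylate cyclase C. It had 11.88, 12.28 and 11.99 in A/J sham, against 10.31, 11.10 and 10.49 in B6 sham. The groups did not overlap, with A/J higher as for 9.15% of all probe sets. Guca2a was 1.42 higher in A/J sham (SE 0.19, limma adjusted p = 0.00378), a call lost when the model held the sham arrays alone (adjusted p = 0.0534). In the CBDL groups it had 12.43, 12.41 and 12.21 in A/J, against 11.34, 11.57 and 11.75 in B6, a difference of 0.80 (SE 0.19, adjusted p = 0.0723).

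Between the CBDL groups 3 of 72 genes (4.17%) passed, where 1.78% of all probe sets did. Qdpr, which regenerates the tetrahydrobiopterin cofactor of the nitric oxide synthases, had 8.99, 8.86 and 8.90 in A/J CBDL, against 9.91, 9.62 and 9.83 in B6 CBDL, and was 0.87 lower on the log2 scale in A/J (difference -0.87, SE 0.10, adjusted p = 0.00124). Gatm, which uses arginine to start creatine synthesis, had 6.26, 6.07 and 6.41 in A/J CBDL, against 5.38, 5.34 and 5.33 in B6 CBDL, a difference of 0.89 (SE 0.13, adjusted p = 0.00442). Oat differed by -0.67 (SE 0.11, adjusted p = 0.00994), and its call was lost without B6 CBDL replicate 1 or replicate 2. Between the sham groups, A/J minus B6 was -0.30 for Qdpr (limma adjusted p = 0.162), 0.41 for Gatm (adjusted p = 0.158) and 0.03 for Oat (adjusted p = 0.925). In the interaction 0 of 72 genes passed by limma, where 0.0366% of all probe sets did, and 13 had an unadjusted p under 0.05, as did 6.88% of all probe sets.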
